A study of Sus scrofa with 40 samples.

Results

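Transcripts of the cells that surround the oocyte in its follicle were followed through 40 RNA-seq libraries of pig (Sus scrofa) metaphase II oocytes, the mature stage that waits for fertilisation. The set comprised 10 genes chosen by name, VCAN, TNFAIP6, HAS2, STAR, CYP11A1, CYP19A1, FSHR, PTGS2, AMH and COL1A2, as a gauge of follicle-cell RNA carried into oocyte libraries. Of these, 9 had a row of that name in both deposited count tables, out of 38794 named rows. HAS2 had none. The reference gene table of pig lists Has2 as another name of SHAS2, whose row was read beside the set.

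The study compared mtDNA-deficient with mtDNA-normal oocytes from pigs labelled as a commercial hybrid (Large White, Duroc and Berkshire breeds). Single oocytes comprised 14 deficient and 15 normal libraries, extracted in the tube and made with the Nugen SoLo kit with a Sus scrofa InDA-C primer mix. Pools of oocytes comprised 5 deficient and 6 normal libraries, extracted with the Arcturus Picopure kit and amplified with the Nugen Ovation systems ("SPIA" in the titles). The titles carry neg and pos marks (with BCB for some samples), and the labels do not say how the states were told apart, how many oocytes or animals a pool held, or whether replicates came from separate animals.

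In the ovarian follicle, cumulus cells surround the oocyte and granulosa cells line the wall. Before ovulation, signals that act through receptors such as FSHR and through prostaglandins made by PTGS2 drive the cumulus cells to lay down a matrix of hyaluronan, made by HAS2, cross-linked with the help of TNFAIP6 and carrying the proteoglycan versican, the product of VCAN. Granulosa cells also make AMH and turn cholesterol into steroids: STAR brings cholesterol into mitochondria, CYP11A1 cuts its side chain, and CYP19A1, aromatase, makes oestrogens. COL1A2 encodes a chain of type I collagen and is a gene of stroma and fibroblasts more than of cumulus cells.

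Levels are in CPM, the counts of a gene scaled to a common library total over the named genes. Pools held 14480546 to 29538982 such counts and single oocytes 706929 to 3067523, so 1 count stood for much more in a single oocyte. A single row, LOC102158401, held 46.7% to 76.0% of all reads of a single oocyte, and RN18S, ribosomal RNA, a further 2.06% to 4.86%, which lowers the CPM of all other genes there. The libraries held oocyte RNA: 10 of 12 oocyte markers averaged at least 10 CPM in each library type, and GDF9, an oocyte growth factor, had 289 to 953 CPM in single oocytes and 869 to 2830 CPM in pools. Library type joins extraction, kit, pooling and depth, which cannot be told apart. Counts are reads and not molecules, so limits given for a count of 0 cover counting error only.

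VCAN gave most of the set's reads in pools, and COL1A2 gave most of them in single oocytes. VCAN held 14.7% of the set's reads in the 29 single oocytes and 89.0% in the 11 pools. COL1A2 held 55.1% in single oocytes and 6.96% in pools. STAR, PTGS2 and CYP11A1 held 8.93%, 8.68% and 7.25% of the set's reads in single oocytes, against 1.87%, 1.65% and 0.147% in pools. These are shares of reads, which also depend on transcript length and kit, and lengths were not used here.

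**Figure D1:**
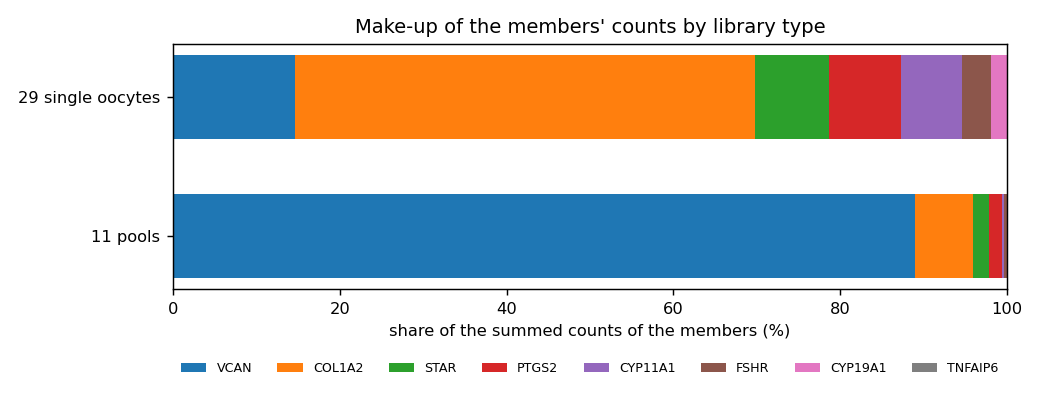
Share of the summed reads of the 9 genes (horizontal axis, percent) that each gene held over 29 single oocytes (upper bar) and 11 pools (lower bar). VCAN takes 89.0% of the lower bar and COL1A2 takes 55.1% of the upper bar; AMH had no count in either and TNFAIP6 is too small to see.

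Of the matrix genes, VCAN was present in every pool and TNFAIP6 was almost absent. VCAN had 612, 1028, 1679, 3034 and 587 counts in deficient pools A1, A2, A3, B2 and B4, equal to 28.5, 71.0, 74.1, 118.5 and 25.8 CPM. In normal pools its level ran from 46.2 CPM through a median of 62.6 to 110.0 CPM. The ranges overlapped: the highest and the lowest pools were both deficient. The mean was 63.6 ± 38.2 CPM over the deficient pools (SD, n = 5) and 68.1 ± 23.4 CPM over the normal ones (SD, n = 6).

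In single oocytes VCAN was much lower. The 14 deficient oocytes ran from 0.734 CPM through a median of 4.94 to 9.95 CPM and all had at least 1 count. The 15 normal oocytes ran from 0 through a median of 3.59 to 9.10 CPM, and 3 had no count. The states overlapped over nearly the whole range, with means of 4.69 ± 3.06 CPM in deficient oocytes (SD, n = 14) and 3.49 ± 2.86 CPM in normal oocytes (SD, n = 15). In CPM no single oocyte reached the lowest pool, but this depended on the scale. With LOC102158401 and RN18S left out of the totals, 3 oocytes, at 27.6, 28.1 and 29.4 CPM, lay above deficient pool B4 at 25.9 CPM. Per count of GDF9, 7 oocytes lay above deficient pool A1, the lowest pool on that scale.

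TNFAIP6 had 0 counts in all 29 single oocytes, which allows up to 0.0728 CPM over their summed counts. In pools it had 1 count in deficient pool B2 and 1 in normal pool A4. SHAS2, the row matched to HAS2 by synonym, likewise had 0 counts in all single oocytes, and in pools 2 counts in deficient pool B4 and 3 in normal pool A3. So of the 3 genes of the expanding matrix, VCAN alone had counts in most libraries. Of 12 other matrix genes listed, 11 had a row. HAPLN1, which links versican to hyaluronan, had 111 counts over 20 of 29 single oocytes and 79 over 9 of 11 pools. PTX3, which joins TNFAIP6 in cross-linking the matrix, had 18 counts over 4 single oocytes and 55 over 5 pools. ADAMTS1, a protease that cuts versican, had 0 counts in all libraries.

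Of the steroid genes, STAR and CYP11A1 had a count in most single oocytes, and CYP19A1 in few. STAR had 2.00, 0.483, 0.397, 3.24 and 1.45 CPM in deficient pools A1, A2, A3, B2 and B4, and ran from 0.0917 CPM through a median of 1.32 to 2.39 CPM in normal pools. In single oocytes it ran from 0 through a median of 3.47 to 7.24 CPM in deficient oocytes and from 0 through 1.84 to 7.19 CPM in normal oocytes. It had a count in 13 of 14 deficient and 11 of 15 normal oocytes, and in all 11 pools. In both library types the states overlapped.

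CYP11A1 showed the opposite pattern to VCAN between library types. It had 86 counts spread over 23 of 29 single oocytes, 10 of 14 deficient and 13 of 15 normal, with at most 9 counts in 1 oocyte. The much deeper pools held 29 counts in all: 2 and 8 in deficient pools A1 and B2 and 0 in the other 3, against 19 counts over 4 of 6 normal pools. RN18S held 0.427% to 1.30% of the reads in the 6 pools with a count and 0.175% to 0.238% in the 5 without. This was noticed in the values and not tested, and how many genes split likewise was not counted. Mean levels were 2.12 ± 1.85 CPM in deficient oocytes (SD, n = 14) and 2.30 ± 1.98 CPM in normal oocytes (SD, n = 15), and 0.0811 ± 0.136 CPM over the deficient pools (SD, n = 5) and 0.122 ± 0.106 CPM over the normal ones (SD, n = 6). CYP19A1 had 22 counts in 4 single oocytes, 9 and 2 in deficient and 6 and 5 in normal ones, and 1 count in the pools, in deficient B2. At 1 count no level can be given for pools.

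Among the signalling genes, PTGS2 had 2.33, 2.83, 0.574, 0.781 and 0.220 CPM in deficient pools A1, A2, A3, B2 and B4, and ran from 0.429 through a median of 0.993 to 3.21 CPM in normal pools. In single oocytes it ran from 0 through 1.57 to 8.15 CPM in deficient and from 0 through 2.04 to 6.85 CPM in normal oocytes. The states overlapped in both. The averages of pools differed with the letter of their title: those titled A averaged 1.91 ± 1.19 CPM when deficient and 1.89 ± 1.16 CPM when normal (SD, n = 3 each), and those titled B averaged 0.501 ± 0.397 CPM when deficient (SD, n = 2) and 0.616 ± 0.317 CPM when normal (SD, n = 3). The letters overlapped: deficient A3, at 0.574 CPM, lay below deficient B2 at 0.781 CPM and normal B1 at 0.982 CPM. What the letter stands for is not stated, and the difference was noticed in the values and not tested.

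FSHR was patchy. It had 2, 0, 17, 33 and 14 counts in deficient pools A1, A2, A3, B2 and B4, against 7 and 2 in normal pools A2 and A3 and 0 in the other 4, so 3 of 5 deficient pools exceeded every normal pool. It was too low to pass the expression filter of edgeR in pools. Tested with no filter, its log2 difference in deficient minus normal pools was 3.16 (SE 1.49, edgeR unadjusted p = 0.0448, adjusted p = 0.472), which did not pass the threshold of 0.05. In that setting 2603 of 24562 genes had an edgeR unadjusted p under 0.05. The split of pools was noticed in the values, and how many genes split likewise was not counted. In single oocytes FSHR had 42 counts in 6 of 29, 3 deficient and 3 normal. All 6 were among the 14 oocytes whose title begins with number 4, and the 15 oocytes of numbers 1 to 3 had 0. This was noticed in the values and not tested, and how many genes seen in few oocytes fall likewise was not counted. Besides the date in the column name, the number is the only label above the oocyte, and its meaning is not stated. Of the 6 oocytes with FSHR, 4 were of 17 September and 2 of 22 September. VCAN had a count in 11 of the 14 oocytes of number 4 and in all 15 others, and STAR in 10 of 14 and in 14 of 15. Seen in 26 and 24 of 29 oocytes, VCAN and STAR could not lie on one side of that split.

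AMH had 0 counts in all 40 libraries. This allows up to 0.0728 CPM over the single oocytes and 0.0116 CPM over the pools.

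Of the 4 members that could be tested in pools, COL1A2 differed most between the states, without passing the test. It had 3.77, 2.21, 1.85, 5.59 and 3.61 CPM in deficient pools A1, A2, A3, B2 and B4, from 81, 32, 42, 143 and 82 counts. Normal pools ran from 4.47 CPM through a median of 7.17 to 8.02 CPM, from 103 to 237 counts. Deficient B2 lay above the 2 lowest normal pools. Within each title letter the states did not overlap in CPM: among pools titled A, 1.85 to 3.77 CPM in deficient and 4.47 to 6.45 CPM in normal ones, and among pools titled B, 3.61 to 5.59 and 7.89 to 8.02 CPM. Of 13540 genes tested in pools, 106 (0.783%) were lower in deficient pools with no overlap within both letters, and COL1A2 was noticed for this after the values were seen. Other traits of the pools also differed with state. The share of counts in the row that names no gene was 2.99% to 4.75% in deficient and 1.05% to 3.43% in normal pools. RN18S held 0.177% to 0.441% of the reads in deficient and 0.175% to 1.30% in normal pools. Genes with a count averaged 16574 in deficient and 17938 in normal pools. The part of these traits in the COL1A2 values was not tested.

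In single oocytes COL1A2 had a count in all 29 and did not show that difference. Deficient oocytes ran from 8.15 CPM through a median of 14.5 to 55.7 CPM and normal oocytes from 1.96 through 14.4 to 43.5 CPM. Means were 17.9 ± 11.8 CPM in deficient oocytes (SD, n = 14) and 17.6 ± 12.3 CPM in normal oocytes (SD, n = 15), against 3.41 ± 1.48 CPM over the deficient pools (SD, n = 5) and 6.59 ± 1.65 CPM over the normal ones (SD, n = 6). The level differed with the date in the column name. Oocytes of 22 September had a median of 21.6 CPM (n = 12) and those of 17 September 10.1 CPM (n = 17), with 6 deficient and 6 normal oocytes on the later date and 8 and 9 on the earlier. Title number 2 occurs on the later date alone and numbers 1 and 3 on the earlier alone, so date and number cannot be told apart there. Within number 4, the one found on both dates, the dates overlapped, at 11.7 to 41.0 CPM in the 6 oocytes of 22 September and 8.15 to 22.4 CPM in the 8 of 17 September. Across the 29 oocytes, which share kit and table, its log2(CPM + 1) had a Pearson r of -0.58 and a Spearman rho of -0.36 with total counts (a description).

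Other stromal markers, TAGLN excepted, had counts in few single oocytes. Of 10 theca and stroma genes listed, 8 had a row, and their summed level was 0.678 to 16.7 CPM in deficient and 0.659 to 29.4 CPM in normal oocytes, and 1.28 to 3.49 CPM in deficient and 2.14 to 6.16 CPM in normal pools. LUM and INSL3 had 0 counts throughout. The collagen gene COL3A1 had 10 counts in 2 single oocytes and 11 in 4 pools, DCN, decorin, had 27 counts in 7 single oocytes and 578 in all 11 pools, and TAGLN, an actin-binding protein of smooth muscle and fibroblasts, had 162 counts in 26 single oocytes and 86 in 9 pools. Whether stromal RNA plays a part in the COL1A2 counts was not tested.

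**Figure D2:**
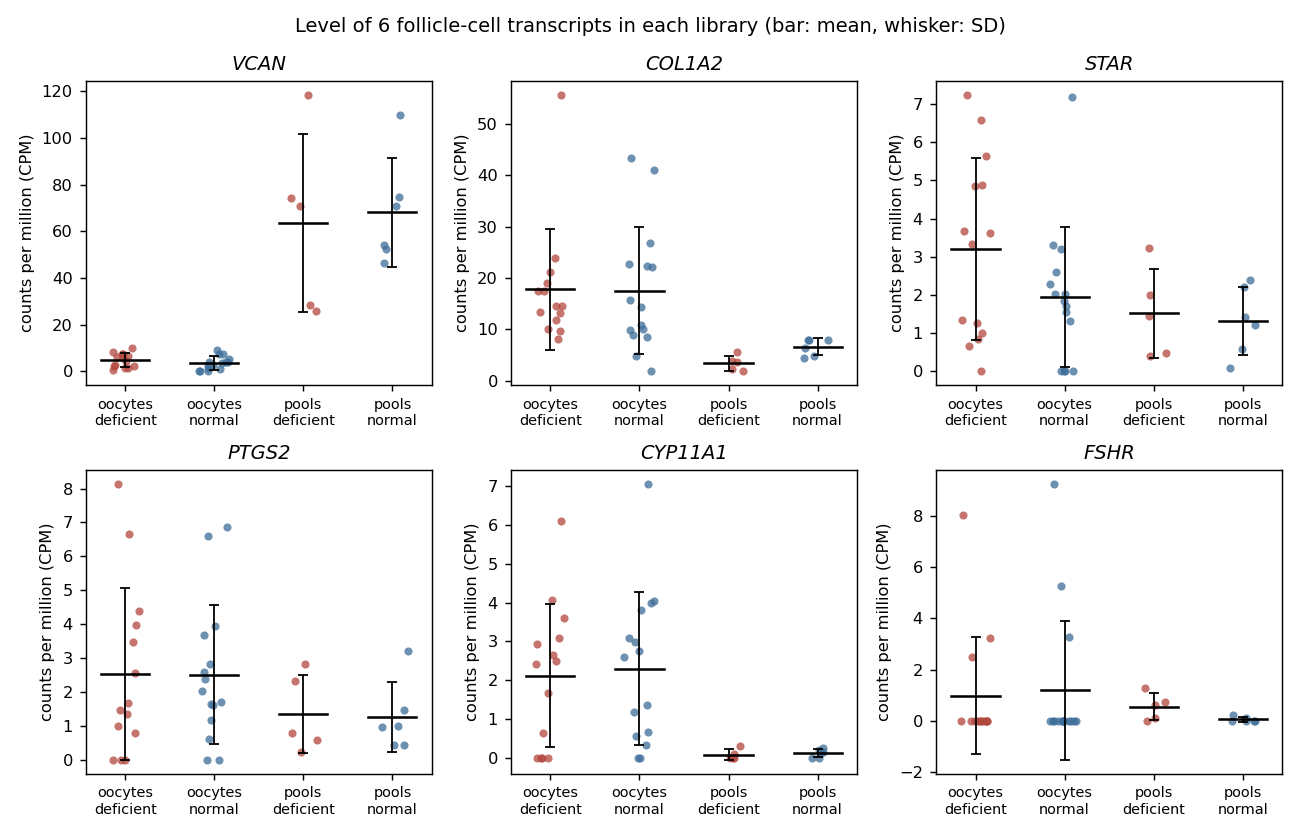
Level of 6 genes in each library (vertical axis, CPM, a scale of its own per gene; points are libraries, the long bar the mean, the whisker the SD) in 14 deficient and 15 normal single oocytes and in 5 deficient and 6 normal pools. On this scale VCAN is higher in pools, COL1A2 and CYP11A1 are higher in single oocytes, and the states overlap for every gene shown.

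Summed over the 9 genes, the level was 22.6 to 67.6 CPM in deficient and 8.80 to 58.6 CPM in normal oocytes, and 31.7 to 129.8 CPM in deficient and 57.1 to 120.3 CPM in normal pools. The sum did not rank library types on its own, since it depended on the scale: the log2 difference of single oocytes minus pools was -1.27 in CPM, but 0.25 with LOC102158401 and RN18S left out of the totals and 0.50 per count of GDF9.

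For the test between states, pools were fitted alone, and single oocytes were first summed by state and title number into 4 deficient and 3 normal sums. Neither pools nor sums were paired in this main test. In pools, 4 of the 9 genes passed the filter and 0 were called at an adjusted p under 0.05 (percent called over all 13540 genes: 0). COL1A2 had a log2 difference, deficient minus normal, of -0.85 (SE 0.37, edgeR unadjusted p = 0.0375, adjusted p = 0.903). At an unadjusted p under 0.05, 726 genes (5.36%) passed, 333 of them (2.46%) lower in deficient pools. STAR had 0.33 (SE 0.75), PTGS2 0.28 (SE 0.81) and VCAN 0.02 (SE 0.39). In bulk libraries fewer cells of a type and less RNA per cell cannot be told apart.

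In the single-oocyte sums 5 of the 9 genes passed the filter and 0 were called (percent called over all 11964 genes: 0; at an unadjusted p under 0.05, 231 genes, 1.93%, and none of these 5). The log2 differences, deficient minus normal, were 0.33 for STAR (SE 0.73), 0.23 for CYP11A1 (SE 0.79), 0.18 for COL1A2 (SE 0.47), 0.16 for VCAN (SE 0.57) and -0.21 for PTGS2 (SE 0.70), each with an edgeR adjusted p of 1. COL1A2 had 18.8, 33.9, 11.1 and 14.9 CPM in deficient sums 1 to 4, against 25.7, 5.89 and 17.7 CPM in normal sums 2 to 4. The sums of VCAN were closer together, at 3.48, 5.24, 6.30 and 4.41 CPM in deficient sums 1 to 4, against 4.67, 4.26 and 2.42 CPM in normal sums 2 to 4.

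Whether the state difference itself differed between library types was tested as an interaction over 7 sums and 11 pools. Of the 9 genes 7 were tested and 0 called (percent called over all 17643 genes: 0; at an unadjusted p under 0.05, 939 genes, 5.32%, and none of these 7). The interaction of COL1A2, the state difference in sums minus that in pools, was 0.99 on the log2 scale (SE 0.62, edgeR adjusted p = 0.922), and that of FSHR was -3.87 (SE 2.27, edgeR adjusted p = 0.911).

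**Figure D3:**
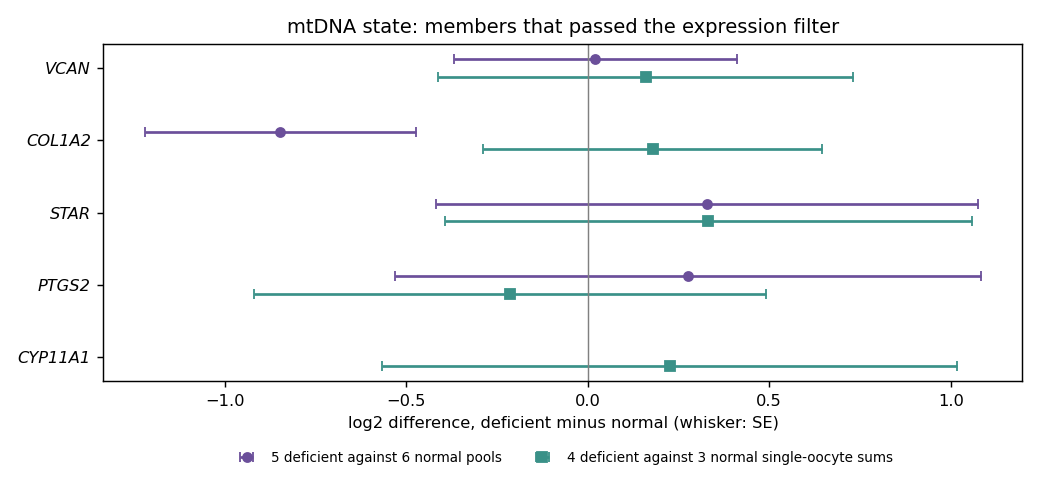
Log2 difference, deficient minus normal (horizontal axis; whisker: SE), of the genes that passed the expression filter, in 5 deficient against 6 normal pools (circles) and 4 deficient against 3 normal single-oocyte sums (squares). COL1A2 in pools, at -0.85, is farthest from 0, and no value passed the test.

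Between library types most genes differed: edgeR called 11039 of 15977 genes (69.1%), 35.1% higher and 34% lower in single-oocyte sums than in pools, so a call there is the common case. Of 6 members tested, 4 were called higher and 1 lower. VCAN fell by 3.41 on the log2 scale in sums relative to pools (SE 0.36, edgeR adjusted p = 7.72e-09). CYP11A1 was higher by 5.03 (SE 0.83, edgeR adjusted p = 8.29e-06) and COL1A2 by 2.49 (SE 0.32, edgeR adjusted p = 2.39e-07).

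PTGS2 was higher by 1.38 (SE 0.56, edgeR adjusted p = 0.0328) and STAR by 1.37 (SE 0.54, edgeR adjusted p = 0.0277). FSHR, at 2.44 (SE 1.22, edgeR adjusted p = 0.0786), did not pass. Its counts in sums came only from deficient sum 4 (18 counts) and normal sum 4 (24 counts). Without normal sum 4 the difference of FSHR was 0.065 (edgeR adjusted p = 0.973). The median log2 difference of the 6 members was 1.91, against 0.03 over all genes tested with TMM. The all-gene median depended on the scaling, at 0.47 with RLE and 1.69 with DESeq2. CYP11A1, at most 0.313 CPM in any pool, passed the filter through the sums, where it was high. The members' median is therefore a description and no evidence that the set was higher, and the call of CYP11A1 carries the same limit. VCAN, CYP11A1 and COL1A2 were called in every setting that tested them, 25, 24 and 25 settings. The calls of PTGS2 and STAR were lost in 7 and 6 of 24 settings, among them without normal pool B4 (PTGS2, adjusted p = 0.0518), without deficient sum 1 (PTGS2, 0.0612), without deficient sum 3 (STAR, 0.0816), without normal sum 2 (0.0729 and 0.0595) and without normal sum 4 (0.0631 and 0.0517).

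**Figure D4:**
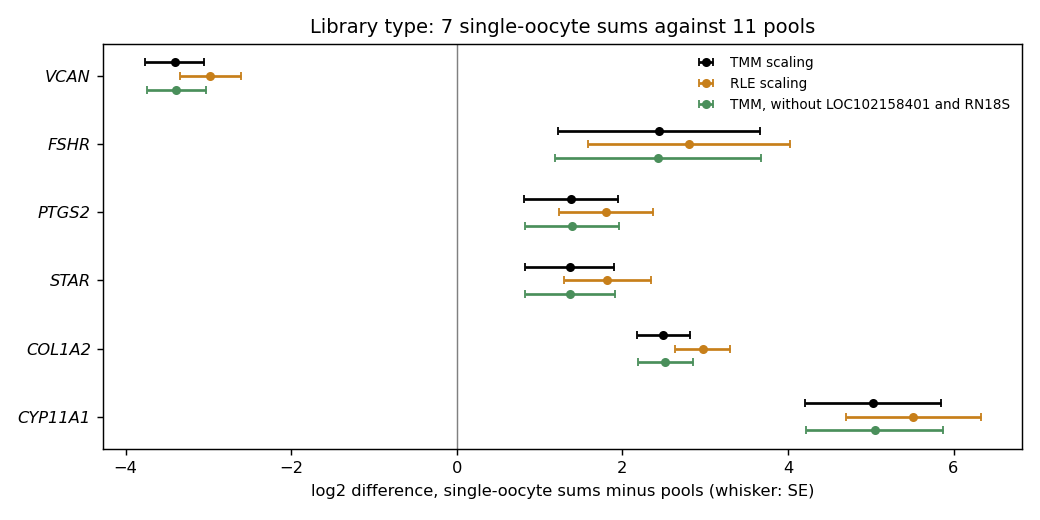
Log2 difference, 7 single-oocyte sums minus 11 pools (horizontal axis; whisker: SE), of 6 genes under TMM scaling, RLE scaling and TMM without LOC102158401 and RN18S. VCAN stands alone to the left of 0 under each scaling, and CYP11A1 is farthest to the right.

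The size of these differences on a plain scale depended on the total used. The mean of VCAN was 4.07 ± 2.97 CPM in single oocytes (SD, n = 29) and 66.0 ± 29.4 CPM in pools (SD, n = 11), 16.2-fold lower in single oocytes. With LOC102158401 and RN18S left out of the totals it was 5.58-fold lower, and per count of GDF9 5.09-fold lower. COL1A2 was 3.45-fold, 9.92-fold and 11.8-fold higher in single oocytes on the same 3 scales, and CYP11A1 21.4-fold, 62.8-fold and 105.9-fold higher, from 29 counts in pools. GDF9 itself was lower in sums than in pools, by 1.33 on the log2 scale (SE 0.20). Folds per count of GDF9 also carry that difference.

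The other genes of the pathways moved in both directions between library types. Of 20 further cumulus and granulosa markers, 10 were tested, 1 was called higher and 3 lower, with a median log2 difference of -0.16. INHBA, a subunit of activin, fell by 1.26 (SE 0.20) and KITLG, the ligand of the oocyte receptor KIT, by 1.03 (SE 0.29) in single-oocyte sums relative to pools. GATM, the third called lower, had 0 counts in single oocytes and 570 in pools, and NR5A1, a nuclear receptor that drives steroid genes and the gene called higher, had 27 counts in 8 single oocytes and 0 in pools. At 0 counts in a whole library type, GATM could only be called lower and NR5A1 only higher. The summed level of these 20 genes was 27.8 to 84.7 CPM in deficient and 19.2 to 67.1 CPM in normal oocytes, and 83.1 to 128.9 CPM in deficient and 78.7 to 151.6 CPM in normal pools. AMHR2 was at 0 in both library types; NR5A2, INHBB and GJA1, the gap junction protein of cumulus cells, were at 0 in single oocytes, and INHA, FOXL2, HSD17B1 and LHCGR were at 0 in pools.

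Of 13 partners of the steroid genes, 6 were tested, with 4 called higher and 2 lower in sums. POR, which passes electrons to CYP19A1, was higher by 2.63 (SE 0.43) and STARD3, a relative of STAR, by 5.23 (SE 1.02), from 69 counts in single oocytes and 33 in pools. NR5A1, at 0 counts in pools, was again among those called higher. FDX1, adrenodoxin, which passes electrons to CYP11A1, fell by 3.09 (SE 0.45) and HSD17B7 by 0.60 (SE 0.25). FDX1 and CYP11A1, which work together, thus lay on opposite sides. FDX1 had 46 counts over 18 of 29 single oocytes and 3392 over all 11 pools. HSD3B1, the next enzyme after CYP11A1, had 2 counts in single oocytes and 1 in pools.

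Of 10 prostaglandin genes 2 were tested, and PTGES3 was called higher by 1.29 (SE 0.39) while PLA2G4A, the phospholipase that frees the substrate of PTGS2, fell by 3.23 (SE 0.20). PLA2G4A stood at 16.4 ± 9.42 CPM in single oocytes (SD, n = 29) and 199.5 ± 37.1 CPM in pools (SD, n = 11). PTGES had 0 counts throughout. Of 12 genes around the FSH and LH receptors and cyclic AMP, 6 were tested: ADCY3, an adenylyl cyclase, was higher by 3.04 (SE 0.28), CREM by 0.53 (SE 0.21), and PRKAR1A, a regulatory subunit of protein kinase A, fell by 2.20 (SE 0.20). Of the 11 matrix genes 5 were tested and 2 called, HAPLN1 higher by 4.09 (SE 0.87) and HYAL2, a hyaluronidase, by 3.64 (SE 0.67). The oocyte markers also split, with 5 of 11 tested called higher and 4 lower, GDF9 falling by 1.33 (SE 0.20). Between states 0 genes of any of these lists were called in pools or in sums.

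Markers of other cells differed widely in level. The summed level of 7 leukocyte and blood genes was 0 to 20.5 CPM in deficient and 0 to 5.51 CPM in normal oocytes, and 0 to 4.19 CPM in deficient and 0.367 to 1.60 CPM in normal pools. That of 6 epithelial genes was higher than that of the 9 members, at 195.1 to 478.8 CPM in deficient and 169.5 to 359.2 CPM in normal oocytes, and 272 to 467.9 CPM in deficient and 185.4 to 543.6 CPM in normal pools. Most of this sum was the single gene CDH1, so it says little of the list as a whole: the sum averaged 286.4 CPM in single oocytes and 397.7 CPM in pools. Of the 7 leukocyte and blood genes, 1 was tested between library types, and CSF1R was called higher by 2.32 (SE 0.99) from 23 counts in 7 single oocytes and 47 in 6 pools. CD14 was at 0 throughout. Of the 6 epithelial genes 3 were tested, and PAX8 was called higher by 4.35 (SE 1.04), from 75 counts in 17 single oocytes and 27 in 5 pools. CDH1 averaged 265.0 CPM in single oocytes and 375.9 CPM in pools and EPCAM 19.4 CPM in single oocytes and 21.8 CPM in pools, neither called. Of the keratins, KRT8 had 0 counts in both library types, and KRT18 and KRT19 had 0 counts in pools and some in single oocytes. The part of such cells in the members' values was not tested. TAGLN, of the stromal list, was called higher by 4.20 (SE 0.64).

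Correlations between members across single oocytes were weak, at depths where counting noise can hide a shared change. Of 9 genes, 5 had a count in most of the 29 oocytes, and the 10 Pearson correlations of their log2(CPM + 1) lay between -0.09 and 0.40 (a description, with no p). Of these 5, all but COL1A2 had a median of 3 to 5 counts per oocyte. The other 4 were not examined. The highest was between VCAN and STAR (Spearman rho 0.25): all 24 oocytes with STAR had VCAN, and 3 had neither. With a pseudocount of 0.1 this r was 0.60, a value that rests on the oocytes with no count. COL1A2 had r of -0.04 with VCAN and -0.09 with STAR. The oocyte with the highest summed level, a deficient one at 67.6 CPM, owed 56 of its 68 counts to COL1A2 and had 0 counts of CYP11A1. In pools the highest r was 0.64 between CYP11A1 and STAR (n = 11, from 29 counts of CYP11A1, all in the pools of higher RN18S share).

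Genes whose pattern over the 29 oocytes was most like each member were sought among 5816 genes with a mean of at least 10 CPM. They were OMA1 (r = 0.64), CAST and HIATL1 for VCAN, HECTD4 (r = 0.66), OST4 and MYD88 for CYP11A1, FAM208A (r = 0.62), PLXND1 and PDCD7 for PTGS2, and BTBD3 (r = 0.59), BCKDK and GEMIN5 for STAR. For COL1A2 they were LOC100739065 (r = 0.75), CEP89 and KIF24. These are the top of a search over many genes in cells that share a kit and a depth range. Of the members COL1A2 alone, and of the 20 further cumulus and granulosa markers 2, had the mean that the search required, so the others could not appear in it.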

How the data were processed

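The authors deposited raw read counts per gene, in a table of pools and a table of single oocytes. The submitters' processing notes name build Sscrofa10.2, TopHat2 2.0.14, Trim Galore, FastQC and edgeR. No source used here gives the counting program or its strand setting, so reads of overlapping genes on opposite strands cannot be told apart. A row that names no gene held 0.648% to 8.15% of the counts of a single oocyte and 1.05% to 4.75% of those of a pool, and was left out.

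The 29 single oocytes were summed by state and first title number into 7 sums of 2 to 7 oocytes, since cells are not replicates. The whole tables were tested with edgeR 4.0.16 (quasi-likelihood test, R 4.3.3), its default expression filter, TMM scaling and Benjamini-Hochberg adjustment at 0.05. Library type was tested with state as a covariate. DESeq2 1.42.0 was an alternative, besides RLE scaling, no filter, leaving out LOC102158401 and RN18S, each library in turn, title letter, date and pairing. An SE is the log2 difference divided by the root of its F statistic. The tests were also run on simulated data with large changes in genes of higher level. That run does not show whether smaller changes, or changes at low counts, would be found.

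The named genes are all members, every listed pathway or marker gene past the test (or, with none past it, the 2 of highest level), and for each member seen in most oocytes the 3 genes of highest Pearson r; further listed genes were named after their values were seen. A gene that this rule took is not reported here. Members and lists were chosen with earlier results of these data known. P-values measure spread between these libraries, which may be technical. No 2 libraries agreed within sampling noise. Sums of the same title number deviated together (correlations 0.143, 0.220 and 0.160 over genes). The main test of sums did not pair them, and pairing by number was an alternative on the 6 sums of shared numbers. The 4 title codes that pools share gave mixed correlations, -0.0945, 0.131, 0.469 and 0.0745, and were not taken to pair pools. A comparison of levels per transcript length was planned and not run. The series text gives 5 pools per group, and the labels give 5 and 6.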

Additional observations from a re-analysis of the deposited data

Results flagged for a closer look

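In each group of 4 to 10 libraries or sums, a value was picked out when its gap to the next was a large part of the group's range. The rule always picks out a lone value above 0 among values at 0, so no chance rate is given for it. In the 26 groups looked at, 7 values stood out. Of these, 5 are libraries with 1 to 3 counts among libraries at 0: CYP19A1 at 0.0391 CPM and TNFAIP6 at 0.0391 CPM in deficient pool B2, TNFAIP6 at 0.0369 CPM in normal pool A4, and SHAS2 at 0.0880 CPM in deficient pool B4 and at 0.138 CPM in normal pool A3. PTGS2 stood at 3.21 CPM in normal pool A4, with the other 5 normal pools at 0.429 to 1.47 CPM. FSHR stood at 2.21 CPM in deficient sum 4, with the other 3 deficient sums at 0; normal sum 4, at 2.64 CPM, was likewise the only normal sum with a count.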

How the results depend on the processing

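Between states, edgeR called 0 genes in pools (726 at an unadjusted p under 0.05), where DESeq2 called 58. In single-oocyte sums it called 0 (231 unadjusted), DESeq2 2, no filter 4, the replicate block on title numbers 2, each oocyte as a sample 1 with or without date, and 17 September alone 2. For the interaction it called 0 (939 unadjusted), no filter 6, each oocyte as a sample 3 and DESeq2 0. None of these calls was a member. Leaving out 1 pool or 1 sum left 0 calls between states. The replicate block changed no other call; for pools it called 0 genes, with COL1A2 at -0.84 (SE 0.58). Of 184 state and interaction values of members under alternatives, 25 had the opposite sign, 0 of them called. COL1A2 in pools stayed negative in all 20, from -1.04 to -0.71, with adjusted p from 0.270 to 0.999.

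Between library types none of the 6 members tested changed sign. TNFAIP6 and SHAS2, tested under DESeq2 (2.50 and 1.62) and with no filter (-0.94 and -1.90) alone, had both signs, none called. Without a filter PTGS2 (adjusted p = 0.0627) and STAR (0.0807) were not called, nor within either state alone, and CYP19A1, with 1 count in pools, was called (5.53e-05). FSHR (2.44) passed under RLE (2.81, adjusted p = 0.0444) and was 0.065 without normal sum 4 (0.973). The median of all genes was 0.03 with TMM, 0.47 with RLE, 0.40 with no filter, 0.21 without LOC102158401 and RN18S and 1.69 with DESeq2, where PTGS2 (1.81) and STAR (1.82) lay near it and VCAN (-2.97), COL1A2 (2.97) and CYP11A1 (5.58) did not. Of calls, 50.8% were higher in sums with TMM, 59.9% with RLE, 60.3% with no filter and 64.9% with DESeq2. The summed level, -1.27 in CPM, was 0.25 without the 2 rows and 0.50 per GDF9. The causes were not tested. Every member but COL1A2 had a median of at most 5 counts over the 29 oocytes.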
